A study of Mus musculus with 18 samples.

Results

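Mouse embryonic fibroblasts carrying a miR-29b vector with the CMV promoter were compared with fibroblasts carrying a miR-29b vector with a Col1a1 promoter, without TGF-β, across all expressed genes. The members were chosen by label: the libraries with plasmid CMV-miR29b and No Treatment against those with plasmid Col1a1-miR29b and No Treatment, 3 libraries a side, 6 of the 18 in the series. The cells came from the American Type Culture Collection and were transfected with a lipid reagent. The series also holds cells with the empty pcDNA3 plasmid, and each of the 3 plasmids with TGF-β added 6 hours after transfection for 24 hours. Poly(A) RNA was sequenced from each library.

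As the study's methods describe them, both miR-29b vectors were built in pcDNA3 and carry the human miR-29b-1 precursor with a green fluorescent reporter, beside a red fluorescent reporter under the SV40 promoter. The CMV promoter is a viral promoter active in most cell types, while the rat Col1a1 promoter is a collagen promoter used in cells that make matrix. The vectors were given at equal molar amounts, and the Col1a1 plasmid is the larger, so its cells received more DNA by mass. Promoter, plasmid size and DNA mass cannot be told apart in this comparison. The question it answers is which genes differ, without TGF-β, between fibroblasts given the CMV-miR-29b vector and those given the Col1a1-miR-29b vector.

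MicroRNAs of the miR-29 family bind short matches to their seed in the 3′ UTR of messenger RNAs, and collagens, elastin and other matrix genes are among their best known targets in fibroblasts. The family is therefore studied as a brake on fibrosis. Interferon-stimulated genes are a set that most cells switch on when interferon binds its receptor. The mature sequences are shown because all 3 family members carry the same seed, in capitals (bases 2 to 8), so their targets are shared; they are from RefSeq, build GRCm38.p6.
mmu-miR-29b-3p: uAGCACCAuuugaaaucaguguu
mmu-miR-29a-3p: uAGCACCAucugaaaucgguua
mmu-miR-29c-3p: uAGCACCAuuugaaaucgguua

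Depth was similar in the 6 libraries. The total count was 79164078, 76123619 and 76369168 in the CMV-miR-29b libraries c, d and e, and 71418843, 74376198 and 70641545 in the Col1a1-miR-29b libraries c, d and the third library, whose column letter is in no sample title. Among counts of 1 to 40, the share that were multiples of 4 lay between 33.8% and 36.72% over the 18 libraries, so a count is not always 1 fragment. On the second principal component (9.59% of the variance) CMV-miR-29b library c scored 33.19, d 4.528 and e 9.741. The Col1a1-miR-29b libraries scored -19.56, -38.37 and -30.4, and the empty vector libraries 32.64, 29.39 and 22.84. The 2 groups did not overlap there, and CMV-miR-29b library c stood nearest to the empty vector.

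The label of the cells was checked against 14 fibroblast markers, of which 12 passed the filter on low counts. Fn1, which encodes fibronectin, was the most abundant at 1604 counts per 1000000 (CPM) on average, but Lum was at 0 in all 6 libraries and Thy1 averaged 0.00869 CPM. Summed over the 14, the markers were at 4314, 4205 and 3737 CPM with CMV-miR-29b, and at 3726, 3718 and 3348 CPM with Col1a1-miR-29b. The blood cell markers, led by Cd68, summed to 23.4, 25.1 and 22.4 CPM with CMV-miR-29b and to 26.1, 27.5 and 26 CPM with Col1a1-miR-29b. Adgre1 was at 0. Epithelial markers summed to 0.267, 0.743 and 0.782 CPM with CMV-miR-29b and to 1.39 CPM in each Col1a1-miR-29b library, with Krt8 at 0. Endothelial markers reached at most 1.96 CPM, with Emcn at 0, skeletal muscle markers at most 0.431 CPM, with Myod1 and Myf5 at 0, and adipocyte markers at most 1.42 CPM, led by Fabp4. Smooth muscle and pericyte markers summed to between 23.1 and 30.9 CPM, led by Des. Neural markers, nearly all Nes, were at 497, 518 and 472 CPM with CMV-miR-29b and at 530, 548 and 534 CPM with Col1a1-miR-29b. Sox2 was at 0. Cartilage markers, led by Sox9, were at 9.69, 8.8 and 9.57 CPM against 12, 10.9 and 12.1 CPM. The blood cell, epithelial, neural and cartilage sums were higher in every Col1a1-miR-29b library than in any CMV-miR-29b library. The fibroblast sums ran the other way. No marker of any of these cell types passed the test between the vectors in edgeR. In bulk RNA, fewer cells of a type and less RNA per cell cannot be told apart.

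The mouse gene of the miR-29b-1 precursor gave the largest rise among the named genes. Mir29b-1 (ENSMUSG00000065604, chromosome 6, 31063023 to 31063093, minus strand) had 110, 115 and 309 counts with CMV-miR-29b, or 1.4, 1.5 and 4.03 CPM. With Col1a1-miR-29b it had 0, 1 and 1 counts, and it had 0 counts in each of the 3 empty vector libraries. The summed counts were 534 against 2, a ratio of 249 after scaling for depth (95% interval 68.7 to 2065, exact binomial, counting error only). Set against a floor of 3 summed counts, as the Col1a1-miR-29b sum lay below it, the ratio was 166. The groups did not overlap, and the edgeR adjusted p was 0.00135, with a fitted log2 fold change of 7.75 ± 0.70 (SE, n = 3 a group). A permutation test of its CPM over the 6 libraries, exact and two-sided, gave p = 0.1, the smallest that 3 against 3 can give. With TGF-β the summed counts were 710 against 12, a ratio of 60.7 (34.6 to 118), and the change of the difference did not pass (adjusted p = 0.978). These are poly(A) reads over the precursor gene, which overlaps Gm27019 on the same strand, so the mature microRNA was not measured. Whether the reads came from the vector or from the mouse gene was not tested. Mir29a, Mir29b-2 and Mir29c had between 0 and 3 counts in each library, at or below the floor of 3 counts, and were not tested.

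Across the transcriptome, 382 of the 21161 genes tested differed at an adjusted p under 0.05, or 1.81%. Of these, 212 were higher with CMV-miR-29b (1% of those tested) and 170 lower (0.803%), and 3478 genes had an unadjusted p under 0.05. Differences were small: the median absolute log2 fold change of the 382 was 0.32, and 25 passed 2-fold, 8 higher and 17 lower. All 382 separated the 6 libraries without overlap, as did 4646 of all genes tested (22%). The count rests on single libraries. It was 61 without CMV-miR-29b library c, 428 without d and 247 without e. It was 178 without Col1a1-miR-29b library c, 84 without d and 107 without the third library. Scaled by total counts alone, 145 genes were higher and 188 lower, and limma on log2(FPKM + 1) called 20 higher and 42 lower. The limma fits lack the third Col1a1-miR-29b library of each condition, and edgeR without the same libraries, a fit chosen after seeing the data, called 79. DESeq2 called 1179, and edgeR on the 6 libraries alone called 18, of which 12 are among the 382.

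**Figure D1:**
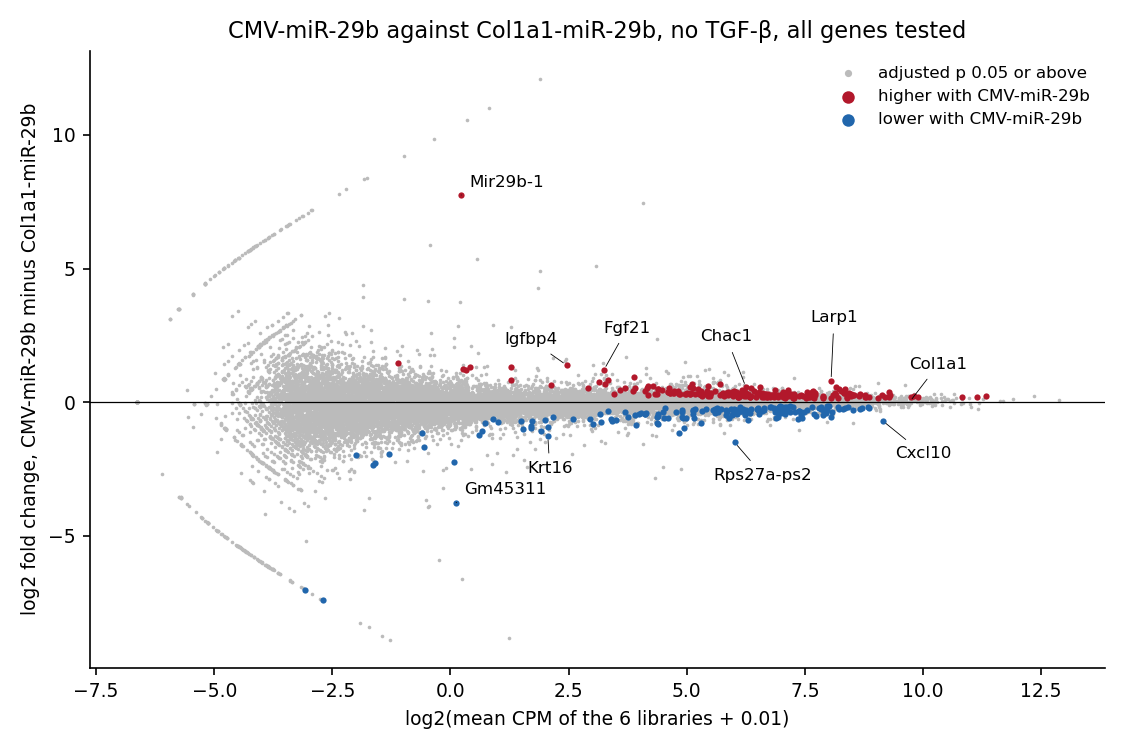
Each point is 1 of the 21161 genes tested, by log2 of its mean CPM in the 6 libraries (x, with 0.01 added) and its log2 fold change, CMV-miR-29b minus Col1a1-miR-29b (y). The 212 red points were called higher and the 170 blue points lower at an adjusted p under 0.05; most lie close to 0, and Mir29b-1 stands far above the other genes called higher.

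Each vector was also set against the empty vector. CMV-miR-29b against the empty vector gave 1 gene at an adjusted p under 0.05 in edgeR (0.00473% of those tested), with 1156 at an unadjusted p under 0.05. That gene was Mir29b-1, at 534 counts against 0 (adjusted p = 0.00263). Col1a1-miR-29b against the empty vector gave 1327 genes (6.27%), 543 higher (2.57%) and 784 lower (3.7%). These comparisons share libraries with each other and with the vector comparison, so their values are given side by side and no overlap is drawn. The 212 genes higher with CMV-miR-29b than with Col1a1-miR-29b had a median log2 fold change of -0.019 for CMV-miR-29b minus empty vector and -0.30 for Col1a1-miR-29b minus empty vector. For the 170 lower genes, these medians were -0.029 and 0.37.

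The 12 largest rises at a mean CPM of at least 1 were led by Mir29b-1 and Igfbp4. Igfbp4, which binds insulin-like growth factors, was at 10.2, 6.6 and 7.01 CPM with CMV-miR-29b and at 3.36, 2.9 and 2.9 CPM with Col1a1-miR-29b. Every CMV-miR-29b library lay above every Col1a1-miR-29b library, and the empty vector libraries, at 8.71, 9.39 and 6.72 CPM, lay within the CMV-miR-29b range. Its log2 fold change was 1.38 ± 0.20 (SE, n = 3 a group, adjusted p = 0.00447 in edgeR). Fgf21, a hormone made under amino acid and mitochondrial stress, was at 14.4, 10.3 and 14.9 CPM against 6.38, 5.44 and 5.42 CPM. The groups did not overlap, and Fgf21 rose by 1.20 ± 0.16 on the log2 scale (adjusted p = 0.00285). The other rises included Mamdc2 (log2 fold change 1.33), Elfn2 (1.32), the estrogen receptor Esr1 (1.26), the magnesium channel Trpm6 (1.20), Angptl6 (0.92), the calcium pump Atp2a3 (0.82), the incretin receptor Gipr (0.81) and Soat2, which esterifies cholesterol (0.76). Their adjusted p lay between 0.00777 for Angptl6 and 0.0498 for Esr1. Over 18 alternatives, Trpm6 was called in 4, Esr1 in 5, Gipr in 6 and Elfn2 in 7, while Angptl6 was called in 14. Mamdc2, Atp2a3 and Soat2 were called in 9 each. The smallest log2 fold change was 0.134 for Trpm6, 0.076 for Esr1, 0.276 for Gipr, 0.233 for Elfn2 and 0.803 for Angptl6.

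Larp1, which binds messenger RNAs of ribosomal proteins, was at 366, 314 and 331 CPM with CMV-miR-29b and at 200, 195 and 187 CPM with Col1a1-miR-29b. The 3 empty vector libraries, at 348, 340 and 331 CPM, lay with the CMV-miR-29b libraries. The rise was 0.80 ± 0.15 on the log2 scale (n = 3 a group, adjusted p = 0.0172 in edgeR). With TGF-β its log2 fold change was -0.31 ± 0.15 (adjusted p = 0.335), and the change of the difference, -1.11 ± 0.21, had an unadjusted p of 0.000101 and an adjusted p of 0.357.

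Of the 12 largest falls at a mean CPM of at least 1, several are genes of unknown role or lie over another gene. Gm45311, within Sergef on the same strand, was at 0.127, 0.143 and 0.169 CPM with CMV-miR-29b and at 1.99, 1.99 and 2.04 CPM with Col1a1-miR-29b. The empty vector libraries did not hold together, at 1.86, 0.175 and 1.83 CPM. Its log2 fold change was -3.76 ± 0.61 (adjusted p = 0.00796). D030051J21Rik, over Gm49355, was at 0.458, 0.222 and 0.391 CPM against 1.42, 1.6 and 2.14 CPM, a fall of 2.26 on the log2 scale (adjusted p = 0.0253). Its empty vector libraries, at 1.3, 1.32 and 1.5 CPM, lay near Col1a1-miR-29b. Gm11131 fell by 1.24 (0.0326), Gm37120 by 1.08 (0.0393), Gm49745 by 1.06 (0.0313), Gm28874 by 1.0 (0.0208) and 4732487G21Rik by 0.97 (0.013), the last with empty vector libraries at 2.66, 3.06 and 3.89 CPM, above the CMV-miR-29b range of 1.96 to 2.44 CPM. Over 18 alternatives, D030051J21Rik was called in 7 and Gm37120 in 6, with log2 fold changes as small as -0.390 and -0.183. Gm45311 and 4732487G21Rik were called in 13 each. No role of these genes is given here.

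The other falls are genes with known products. Krt16, a keratin of stressed epidermis, was at 2.15, 2.79 and 2.39 CPM with CMV-miR-29b and at 6.44, 5.78 and 5.4 CPM with Col1a1-miR-29b. The empty vector libraries, at 2.74, 1.92 and 2 CPM, lay near CMV-miR-29b, and the log2 fold change was -1.27 ± 0.19 (SE, n = 3 a group, adjusted p = 0.0046 in edgeR). Zdhhc24, of the palmitoyltransferase family, had a log2 fold change of -1.15 (adjusted p = 0.0332), and Coq8a, of coenzyme Q synthesis, one of -0.95 (0.0292). Prkar2b, a regulatory subunit of protein kinase A, was at 22.5, 20.5 and 18.9 CPM against 42.3, 37.4 and 42.2 CPM, a log2 fold change of -0.98 ± 0.23 (adjusted p = 0.0463). In the empty vector it was at 26.2, 47.2 and 44.5 CPM; these libraries all lay above CMV-miR-29b, 2 of them also above Col1a1-miR-29b. With TGF-β its log2 fold change was 0.76 (adjusted p = 0.106), and the change of the difference had an adjusted p of 0.357.

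Rps27a-ps2, a pseudogene of the ribosomal protein gene Rps27a, was at 29.4, 45.3 and 26.1 CPM with CMV-miR-29b and at 126, 53.4 and 107 CPM with Col1a1-miR-29b. Rps27a itself ran the other way, at 385, 341 and 415 CPM against 238, 325 and 247 CPM. In both genes, CMV-miR-29b library d and Col1a1-miR-29b library d lay closest to the other group. The log2 fold changes were -1.51 ± 0.28 and 0.50 ± 0.10 (adjusted p = 0.0162 and 0.0277 in edgeR). How reads were shared between the gene and its copy was not tested.

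Of the 24 gene lists, which were chosen with earlier results of these data known, the interferon effectors held the most genes called lower. Of 65 interferon effectors tested, 17 were lower with CMV-miR-29b than with Col1a1-miR-29b and 0 higher, beside 0.803% of all genes lower. Their median log2 fold change was -0.28, against -0.009 over all genes tested. The fallen genes were Iigp1, Mx1, Cxcl10, Oas2, Igtp, Irgm2, Ifit1, Usp18, Sp100, Gbp2, Trim30a, Slfn9, Gbp3, Dtx3l, Xaf1, Oas1a and Ifi35, with log2 fold changes from -0.26 to -0.86. They include antiviral effectors (Mx1, Ifit1, Oas2), a GTPase that attacks the vacuoles of intracellular pathogens (Iigp1), 2 regulatory GTPases of the same family (Igtp, Irgm2) and the chemokine Cxcl10. Relative to the empty vector, the median of the 65 was 0.13 for CMV-miR-29b and 0.40 for Col1a1-miR-29b. By library it was 0.234, -0.008 and 0.126 in CMV-miR-29b c, d and e, and 0.450, 0.348 and 0.403 with Col1a1-miR-29b. DESeq2 called 25 of them and edgeR on the 6 libraries alone 3. Without the third Col1a1-miR-29b libraries, edgeR with the replicate letter as a block called 4 and limma 8. The count was 13 without CMV-miR-29b library c, 10 without d and 9 without e. It was 8 without Col1a1-miR-29b library c, 13 without d and 7 without the third library. The median stayed between -0.37 and -0.22 over 18 alternatives.

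Cxcl10, which draws T cells to inflamed tissue, was at 426, 421 and 447 CPM with CMV-miR-29b, at 684, 723 and 698 CPM with Col1a1-miR-29b and at 426, 396 and 451 CPM with the empty vector. The CMV-miR-29b and empty vector libraries lay in the same range, and every Col1a1-miR-29b library lay above them. The log2 fold change was -0.70 ± 0.05 (n = 3 a group), and edgeR's adjusted p was 7.54e-06. Igtp, chosen after its values were seen, was at 130, 125 and 129 CPM against 201, 209 and 182 CPM, with 112, 107 and 116 CPM in the empty vector. The groups did not overlap, and its log2 fold change was -0.63 ± 0.07 (adjusted p = 0.00146). Mx1 was more spread, at 18.9, 11.9 and 14.8 CPM against 29, 21.5 and 27.4 CPM, with a log2 fold change of -0.77 ± 0.19 and an adjusted p of 0.0498. Iigp1 gave 12.9, 9.37 and 10 CPM against 21.6, 16.1 and 20.6 CPM (-0.86 ± 0.19, adjusted p = 0.0357).

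**Figure D2:**
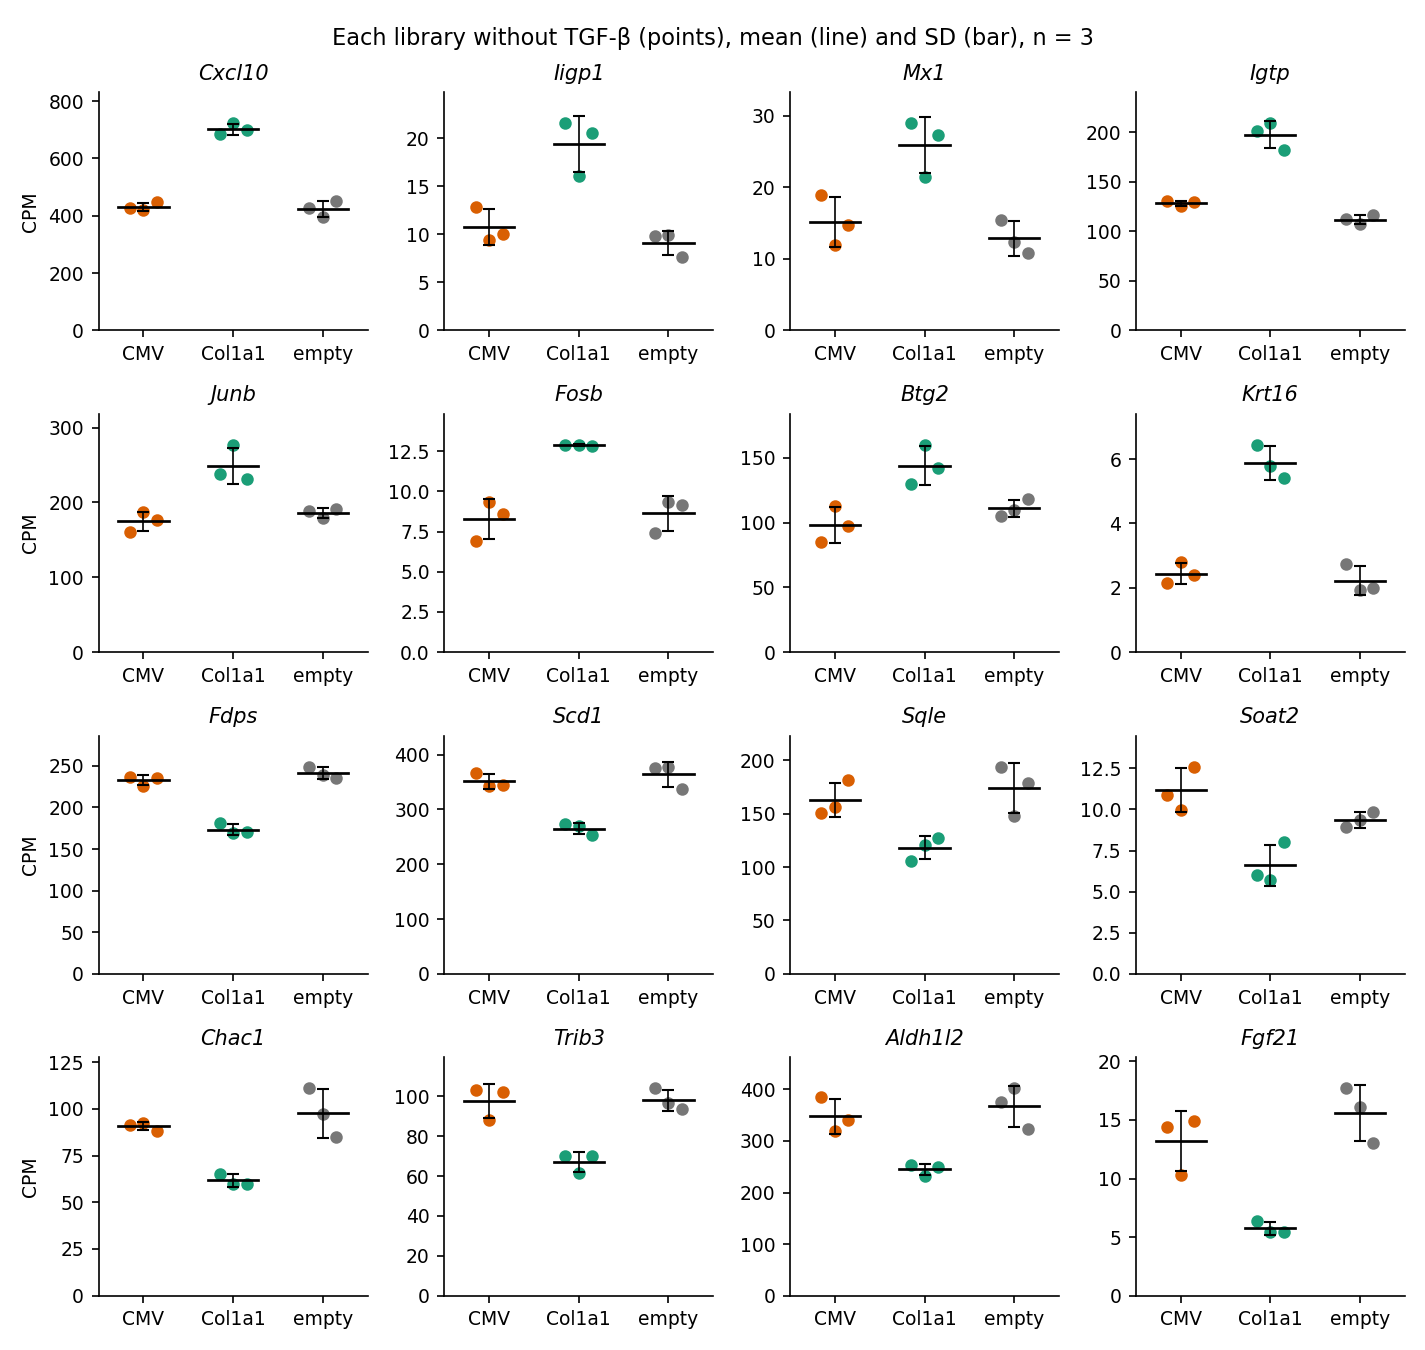
CPM (y, from 0) of 16 genes in the 3 libraries of each group without TGF-β; points are libraries, lines the mean and bars the SD. In the upper 2 rows of panels the Col1a1-miR-29b libraries lie above the CMV-miR-29b libraries (Cxcl10 at 684 to 723 against 421 to 447 CPM), and in the lower 2 rows below them (Fdps at 169 to 181 against 226 to 237 CPM).

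A promoter motif was counted in the interferon effectors, both in all those tested and in those that fell. The core of the interferon-stimulated response element, GAAANNGAAA on either strand, was found in 1131 of 32851 RefSeq promoters of 300 bases (3.44%). It was in 30 of the 50 tested interferon effectors with a promoter in the table (60%), and in 9 of the 13 that fell (69.2%); the other 4, Xaf1, Ifi35, Dtx3l and Sp100, had no match. As these 2 shares are near each other, the motif goes with membership of the list and does not set the fallen genes apart. Among all genes lower with CMV-miR-29b, which include the 13 fallen effectors, it was in 20 of 124 (16.1%). It was in 1 of 157 higher genes (0.637%), and in 463 of the 12362 tested genes with a promoter in the table (3.75%). The motif was chosen after the values were seen, and a match describes letters and is no evidence of binding. The promoters of Cxcl10 (chr5:92348840-92349139, minus strand), Igtp (chr11:58199306-58199605, plus strand) and Ifit1 (chr19:34640639-34640938, plus strand), build GRCm38.p6 from RefSeq, are printed with their matches in capitals as 3 of the 9 fallen genes that hold one. They run from 250 bases before the gene's start to 50 after it. The matches begin at -213 in Cxcl10 and -34 in Igtp relative to the start, and Ifit1 holds 2, at -104 and -85.
Cxcl10: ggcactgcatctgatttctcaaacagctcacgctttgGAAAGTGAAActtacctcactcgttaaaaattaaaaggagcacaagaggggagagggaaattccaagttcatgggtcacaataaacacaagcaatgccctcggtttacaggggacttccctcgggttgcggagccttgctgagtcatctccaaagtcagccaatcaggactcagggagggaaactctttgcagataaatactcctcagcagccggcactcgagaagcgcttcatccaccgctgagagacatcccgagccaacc
Igtp: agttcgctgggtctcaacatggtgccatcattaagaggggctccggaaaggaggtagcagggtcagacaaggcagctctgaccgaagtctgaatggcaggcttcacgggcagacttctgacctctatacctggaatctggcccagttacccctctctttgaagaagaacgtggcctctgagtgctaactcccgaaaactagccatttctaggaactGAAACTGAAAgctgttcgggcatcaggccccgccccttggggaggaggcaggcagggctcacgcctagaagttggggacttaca
Ifit1: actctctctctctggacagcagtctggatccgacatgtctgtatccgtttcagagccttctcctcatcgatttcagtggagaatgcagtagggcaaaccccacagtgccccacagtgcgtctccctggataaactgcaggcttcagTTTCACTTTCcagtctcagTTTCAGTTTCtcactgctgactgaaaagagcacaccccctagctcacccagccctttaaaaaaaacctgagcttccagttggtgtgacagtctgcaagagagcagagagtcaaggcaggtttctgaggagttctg

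Genes around the interferon response were also called lower, 5 over 4 lists, beside 0.803% of all genes lower. Of 19 interferon signaling factors, 2 were lower and 0 higher (10.5% called, median -0.053): Socs1 (log2 fold change -0.73, adjusted p = 0.0494) and Socs3 (-0.38, 0.0277), both feedback inhibitors of cytokine signaling. Of 17 nucleic acid sensors, 1 was lower, the adaptor Myd88 (-0.28 ± 0.06, adjusted p = 0.0369), with a median of -0.12. Of 20 antigen presentation genes, 1 was lower, Tapbp, which loads peptide onto MHC class I (-0.35 ± 0.07, adjusted p = 0.0166; median -0.051). Of 29 inflammatory cytokine and NF-kB genes, 1 was lower, the chemokine Ccl7, at 51.9, 52.3 and 51.6 CPM against 70.9, 80.2 and 64.3 CPM (-0.47 ± 0.09, adjusted p = 0.0172; median -0.054). The signaling factors and antigen presentation genes had medians above 0 in some alternatives, up to 0.006 and 0.037. With 1 library left out, the median of the nucleic acid sensors ran from -0.198 to -0.070. That of the inflammatory genes ran from -0.133 to -0.011. The signaling factors had 2 calls without CMV-miR-29b library d and 0 without any 1 of the other 5 libraries. With a library left out, the nucleic acid sensors had 0 calls in each of the 6 fits, the antigen presentation genes 0 or 1 and the inflammatory genes 0 to 2. All 4 lists had 0 on the 6 libraries alone.

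Some of the sterol and fatty acid synthesis genes were called higher. Of 27 genes tested, 9 were higher with CMV-miR-29b, 0 lower and 18 not called, beside 1% of all genes higher, with a median log2 fold change of 0.26. They included Sqle, Fdps, Scd1, Nsdhl, Scd2, Acaca and Cyp51, and the 9 had log2 fold changes from 0.30 to 0.46. Relative to the empty vector, the median of the 27 was -0.026 for CMV-miR-29b and -0.32 for Col1a1-miR-29b. Fdps, which makes farnesyl diphosphate for cholesterol and prenylation, was at 237, 226 and 235 CPM with CMV-miR-29b and at 181, 169 and 170 CPM with Col1a1-miR-29b. The groups did not overlap, and the empty vector libraries, at 249, 239 and 235 CPM, lay near CMV-miR-29b; the rise was 0.42 ± 0.05 (adjusted p = 0.00121 in edgeR). Fdps overlaps Gm43738 on the same strand. Scd1, the main stearoyl-CoA desaturase, was at 366, 343 and 344 CPM against 273, 269 and 253 CPM (0.41 ± 0.04, adjusted p = 0.00121).

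Sqle, squalene epoxidase, was more spread than Fdps or Scd1, at 151, 156 and 181 CPM against 106, 121 and 127 CPM (0.46 ± 0.10, adjusted p = 0.037 in edgeR). The groups did not overlap. Without single libraries the list had between 6 and 9 calls, DESeq2 gave 14 and edgeR on the 6 libraries alone 1. Without the third Col1a1-miR-29b libraries, edgeR with the replicate block gave 3 and limma 4. A sterol response element core, TCACNCCAC, chosen after the values were seen, was in 1.24% of all promoters. It was in 1 of the 18 tested members with a promoter in the table (5.56%) and in 0 of the 3 of these that rose, and in 7 of the 157 genes called higher (4.46%) and 2 of the 124 called lower (1.61%).

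Some of the unfolded protein and amino acid stress genes were also called higher. Of 31 tested, 9 were higher, 0 lower and 22 not called, beside 1% of all genes higher, with a median log2 fold change of 0.14. The 9 were Chac1, Trib3, Aldh1l2, Xbp1, Mthfd2, Psat1, Hsp90b1, Shmt2 and Pdia4. They span glutathione breakdown (Chac1), mitochondrial folate enzymes (Aldh1l2, Mthfd2, Shmt2), serine synthesis (Psat1) and chaperones of the endoplasmic reticulum (Hsp90b1, Pdia4). Chac1 was at 91.5, 92.3 and 88.4 CPM with CMV-miR-29b, at 65.4, 59.8 and 59.8 CPM with Col1a1-miR-29b and at 111, 97 and 84.9 CPM with the empty vector. The vector groups did not overlap, and the rise was 0.56 ± 0.08 (n = 3 a group, adjusted p = 0.00435 in edgeR). Trib3, a pseudokinase of the same stress response, was at 103, 88 and 102 CPM against 70.3, 61.4 and 70 CPM (0.54 ± 0.10, adjusted p = 0.0137). Aldh1l2 was at 385, 319 and 340 CPM against 253, 233 and 249 CPM (0.51 ± 0.09, adjusted p = 0.0169). The median of the 31 was -0.006 for CMV-miR-29b minus empty vector and -0.13 for Col1a1-miR-29b minus empty vector. DESeq2 called 11, edgeR on the 6 libraries alone 1, and the replicate block and limma, both without the third Col1a1-miR-29b libraries, 1 each. The count was 1 without CMV-miR-29b library c, 5 without Col1a1-miR-29b library c, 3 without d and 4 without the third library. It stayed within 1.5 times without CMV-miR-29b libraries d and e.

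The C/EBP and ATF response element core TTGCATCA, chosen after the values were seen, was in 0.895% of all promoters. It was in 4 of the 28 tested stress genes with a promoter and in 1 of the 8 that rose, Chac1, and in 7 of the 157 genes called higher (4.46%) and 0 of the 124 called lower. Its promoter (chr2:119350992-119351291, plus strand, build GRCm38.p6, RefSeq) is shown because Chac1 passed in all 18 alternatives, with the match, at -193, in capitals.
Chac1: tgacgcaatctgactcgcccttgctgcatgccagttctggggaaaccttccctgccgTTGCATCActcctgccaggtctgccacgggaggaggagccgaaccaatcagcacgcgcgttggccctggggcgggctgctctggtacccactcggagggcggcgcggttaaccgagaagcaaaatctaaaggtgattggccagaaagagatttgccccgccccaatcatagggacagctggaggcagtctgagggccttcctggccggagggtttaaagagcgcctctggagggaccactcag

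**Figure D3:**
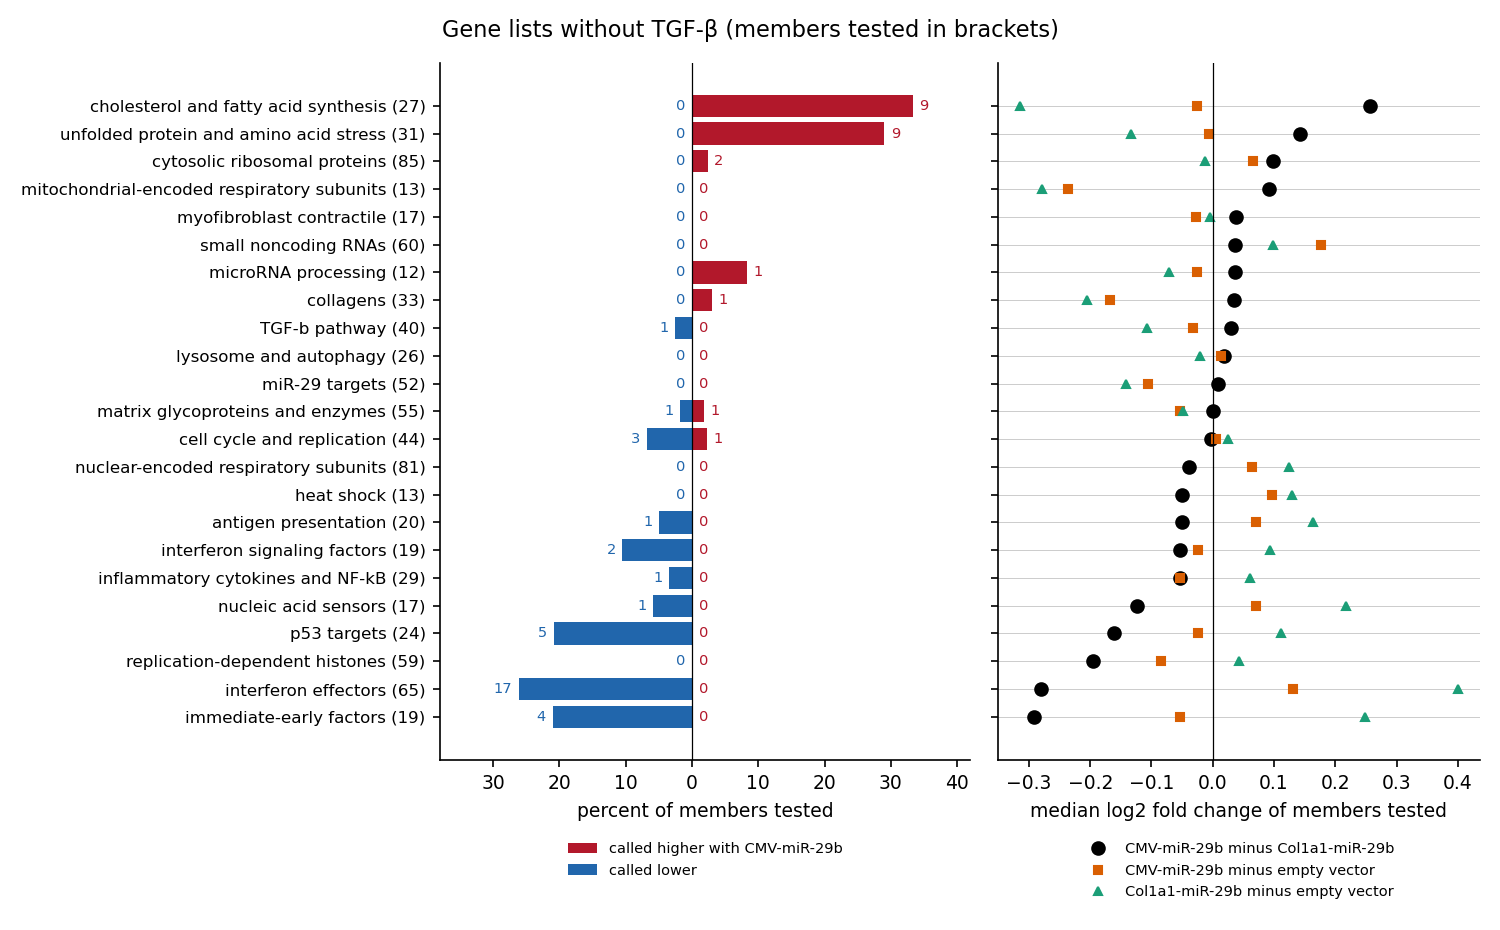
Left, percent of the tested members of each gene list, other than the miR-29 family with its 1 gene tested, called higher (red) or lower (blue) with CMV-miR-29b, with the number of genes beside each bar. Right, the median log2 fold change of each list in the vector comparison and against the empty vector. The 17 interferon effectors are the longest blue bar, and the 9 sterol and 9 stress genes the longest red bars.

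A few immediate-early factors, the first genes switched on by growth and stress signals, were called lower. Of 19 tested, 4 were lower with CMV-miR-29b and 0 higher, beside 0.803% of all genes lower (median -0.29): Fosb, Btg2, Junb and Jun. Junb was at 161, 187 and 176 CPM against 238, 277 and 232 CPM, with 189, 179 and 191 CPM in the empty vector. Every Col1a1-miR-29b library lay above the rest, and the fall was -0.51 ± 0.07 (n = 3 a group, adjusted p = 0.00435 in edgeR). Jun, named after its values were seen, was at 200, 224 and 210 CPM against 259, 287 and 291 CPM (-0.40 ± 0.05, adjusted p = 0.00354). Fosb was at 6.9, 9.34 and 8.6 CPM against 12.9, 12.9 and 12.8 CPM (-0.64 ± 0.15, adjusted p = 0.0498). The count was 7 without CMV-miR-29b library d and 2 without any 1 of the other 5 libraries. With 1 library left out, the list median ran from -0.316 to -0.173. DESeq2 called 7, edgeR on the 6 libraries alone 0, and the replicate block 1 and limma 2, both without the third Col1a1-miR-29b libraries.

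Of 24 p53 targets, 5 were lower and 0 higher, beside 0.803% of all genes lower (median -0.16). Btg2, which slows proliferation and is also among the immediate-early factors, was at 85.4, 113 and 97 CPM with CMV-miR-29b against 130, 160 and 142 CPM. The groups did not overlap (-0.55 ± 0.12, adjusted p = 0.0393 in edgeR). Pmaip1, which promotes apoptosis, had a log2 fold change of -0.40 (adjusted p = 0.0498), and Plk2 one of -0.30 (0.0456). Cdkn1a, the p21 inhibitor of cell cycle kinases, and Ei24, named after their values were seen, had -0.22 (adjusted p = 0.0475) and -0.19 (0.0409). DESeq2 called 6, and 10 had an unadjusted p under 0.05 in edgeR. In edgeR the count was 2 without CMV-miR-29b library d, 1 without e, 0 without any 1 of the other 4 libraries and 0 on the 6 libraries alone. Without the third Col1a1-miR-29b libraries, the replicate block and limma also gave 0. The list median ran from -0.188 to -0.078 over the 18 alternatives.

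Cell cycle and replication genes were called in both directions: of 44 tested, 1 was higher, Top2a, and 3 lower, Ccne1, Rrm2 and Pcna (9.09% called, beside 1.81% of all genes; median -0.003, or -0.031 to 0.020 over the alternatives). Top2a, the topoisomerase of dividing cells, was at 995, 920 and 965 CPM against 852, 788 and 830 CPM (0.22 ± 0.04, adjusted p = 0.00764 in edgeR). Ccne1, cyclin E1, was at 50.4, 61.6 and 57.4 CPM against 75.9, 78.8 and 78.3 CPM (-0.46 ± 0.10, adjusted p = 0.0378). Rrm2, of nucleotide synthesis, and Pcna, the replication clamp named after its values were seen, had log2 fold changes of -0.23 (adjusted p = 0.044) and -0.22 (0.0439). The count was 2 without CMV-miR-29b library e, 3 without d, 1 without any 1 of the other 4 libraries and 0 on the 6 libraries alone.

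The miR-29 targets gave 0 calls in edgeR among 52 tested, beside 1.81% of all genes, with 11 at an unadjusted p under 0.05 and 3 called by DESeq2. In edgeR the count was 2 without CMV-miR-29b library d, and 1 without the third Col1a1-miR-29b library, scaled by total counts alone or with at least 10 counts asked of every library. Their median log2 fold change was 0.009 (-0.034 to 0.032 over the alternatives), and for CMV-miR-29b and Col1a1-miR-29b minus the empty vector it was -0.11 and -0.14. Against the empty vector, 8 of the 52 were called lower with Col1a1-miR-29b (15.4%), beside 3.7% of all genes. With CMV-miR-29b 0 were called lower, as for all genes. Of the 52, 47 carry the 7 bases TGGTGCT, the reverse complement of the seed, in the 3′ UTR, and 21 carry at least 2 copies. The median of those 47 was 0.008. Sites of 2 collagen genes and 2 of the named targets Loxl2 and Itgb1 are shown, with the match in capitals, because the named targets carry the match and did not pass the test. They lie in the GENCODE M21 3′ UTRs, build GRCm38.p6: Col1a1 chr11:94952525-94952545, Col3a1 chr1:45348969-45348989 and Itgb1 chr8:128732862-128732882 on the plus strand, and Loxl2 chr14:69694735-69694755 on the plus strand.
Col1a1: gggaaggaatttcTGGTGCTa
Col3a1: caaaatgtctcaaTGGTGCTa
Loxl2: ccagctcatggaaTGGTGCTa
Itgb1: tttctttaattccTGGTGCTc

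Col1a1, whose promoter 1 vector carries, was at 849, 924 and 749 CPM with CMV-miR-29b and at 869, 904 and 745 CPM with Col1a1-miR-29b. The groups overlapped, with a log2 fold change of 0.002 ± 0.08 (adjusted p = 0.997 in edgeR), which is below 0 under 10 of 18 alternatives. The empty vector libraries were at 1072, 942 and 955 CPM. Col3a1 had 169, 147 and 138 CPM against 140, 148 and 118 CPM (0.16 ± 0.11, adjusted p = 0.531). Its empty vector libraries, at 229, 186 and 196 CPM, lay above every library of either vector. Against them its log2 fold change was -0.43 with CMV-miR-29b (edgeR adjusted p = 0.629) and -0.59 with Col1a1-miR-29b (0.00751). Loxl2, which crosslinks collagen, and Itgb1, the integrin β1 chain, had log2 fold changes of 0.033 and -0.007 (adjusted p = 0.853 and 0.958), and both cross 0 in some alternatives.

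The whole transcriptome was also grouped by the seed match. Of genes with an annotated 3′ UTR, 12229 without a match had a median log2 fold change of 0.013, with 176 higher and 114 lower. The 1796 genes with 1 match had a median of 0.022, with 24 higher and 27 lower. The 253 with 2 matches had -0.005, with 4 higher and 8 lower, and the 67 with 3 or more had 0.001, with 0 higher and 1 lower. In the same order, 2.37%, 2.84%, 4.74% and 1.49% of the genes were called, beside 2.47% of all those with a 3′ UTR. Longer 3′ UTRs hold more matches: their median lengths were 937, 2198, 3341 and 4728 bases. Between CMV-miR-29b and the empty vector the same groups had medians of 0.001, -0.024, -0.042 and -0.085, and between Col1a1-miR-29b and the empty vector -0.008, -0.041, -0.039 and -0.051.

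**Figure D4:**
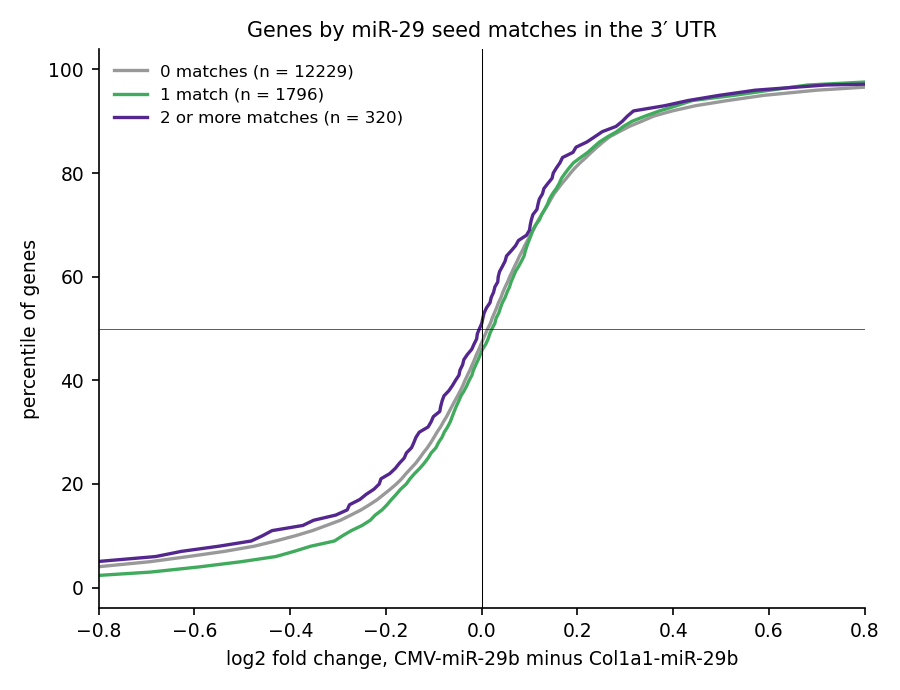
Percentiles (y) of the log2 fold change, CMV-miR-29b minus Col1a1-miR-29b (x), for genes with 0, 1 and 2 or more seed matches in the 3′ UTR. The 3 curves run close together around 0, with medians of 0.013, 0.022 and -0.005 for 0, 1 and 2 or more matches.

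Matrix genes gave 4 calls in edgeR over 3 lists, at 3.03%, 3.64% and 2.5% of the genes tested, beside 1.81% of all genes. Of 33 collagens, 1 was higher, Col12a1, which decorates collagen fibrils, at 111, 113 and 101 CPM against 84.3, 85 and 87.8 CPM (0.34 ± 0.06, adjusted p = 0.015 in edgeR; list median 0.034). Of 55 matrix glycoproteins and enzymes, P4ha2, a prolyl hydroxylase of collagen, was higher (0.20 ± 0.05, adjusted p = 0.0456) and Timp2, an inhibitor of matrix metalloproteinases, lower (-0.27 ± 0.05, adjusted p = 0.0208), with a list median of 0.001; DESeq2 called 8 of the 55. Of 40 TGF-β pathway genes, 1 was lower, the ligand Tgfb3, at 16, 18.6 and 15.3 CPM against 24.8, 25 and 23.8 CPM (-0.56 ± 0.11, adjusted p = 0.019; list median 0.030), and DESeq2 called 2. Each of the 4 calls was lost without at least 1 of the 6 libraries, and the 3 lists had 0 calls on the 6 libraries alone. The 17 myofibroblast contractile genes gave 0 calls in edgeR, 2 at an unadjusted p under 0.05 and 2 in DESeq2 (median 0.038), and edgeR called 2 without CMV-miR-29b library d. Their named members Itgb1 and Flna had log2 fold changes of -0.007 and 0.077, and Acta2, smooth muscle actin, had -0.53 ± 0.14 (adjusted p = 0.0725 in edgeR). Acta2 passed in 2 of 18 alternatives, DESeq2 among them (adjusted p = 0.017). The medians of these 4 lists changed sign in some alternatives, and ran from -0.062 to 0.079.

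Of 85 cytosolic ribosomal proteins, 2 were higher (2.35%, beside 1% of all genes higher), Rps27a and Rpl7 (0.25 ± 0.06, adjusted p = 0.0456 in edgeR), with a median of 0.099; offsets for transcript length and GC content raised that count to 15, and DESeq2 called 8. It was 0 on the 6 libraries alone, 7 without CMV-miR-29b library d, 0 without CMV-miR-29b library c or Col1a1-miR-29b library c, and 1 without any other. Of 12 microRNA processing genes, 1 was higher (8.33%), Tnrc6c, a partner of Argonaute (0.19 ± 0.04, adjusted p = 0.0392 in edgeR). That count was 1 without CMV-miR-29b library e and 0 without any 1 of the other 5 libraries. The list median was 0.036, and ran from -0.001 to 0.067 over the alternatives. The 59 replication-dependent histones had a median of -0.20 (-0.313 to -0.052 over the alternatives) and 0 calls in edgeR. Of these genes, 8 had an unadjusted p under 0.05, and DESeq2 called 1. Their named members Hist2h2be and Hist1h1c had log2 fold changes of -0.42 and -0.42 (adjusted p = 0.304 and 0.126). The 60 small noncoding RNAs, most of which lack a poly(A) tail, had 0 calls, 7 at an unadjusted p under 0.05 and 1 in DESeq2 (median 0.037, or -0.041 to 0.148 over the alternatives); Snora2b and Rn7sk had -0.17 and -0.17, the latter changing sign in some alternatives.

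Respiratory, heat shock and lysosomal genes had 0 calls in edgeR as reported, beside 1.81% of all genes. The 13 mitochondrial-encoded respiratory subunits had 0 calls, 0 at an unadjusted p under 0.05 and 0 in DESeq2 (median 0.091). That median turned to -0.125 without CMV-miR-29b library c and -0.014 without Col1a1-miR-29b library c, and was 0.283 without CMV-miR-29b library d. Their spread was wide: mt-Co2 was at 3433, 1871 and 2942 CPM with CMV-miR-29b and at 1723, 2110 and 3457 CPM with Col1a1-miR-29b, and mt-Co1 had a log2 fold change of 0.091 ± 0.10. Of 81 nuclear-encoded subunits, 15 had an unadjusted p under 0.05 and DESeq2 called 2 (median -0.038); Atp5b and Atp5a1 had -0.046 and -0.062. Of 13 heat shock genes, 4 had an unadjusted p under 0.05 and DESeq2 called 0 (median -0.051); Hsp90ab1 and Hsp90aa1 had 0.029 and -0.20. Of 26 lysosome and autophagy genes, 6 had an unadjusted p under 0.05 and DESeq2 called 2 (median 0.019), and edgeR called 1 without CMV-miR-29b library e and 1 with the length and GC offsets; Lamp1 and Psap had -0.10 and 0.077. The medians of the nuclear-encoded subunits, heat shock genes and lysosome genes also changed sign in some alternatives, within -0.098 to 0.073.

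The same vector comparison was made with TGF-β in separate libraries. There, 408 genes were called (1.93%), 215 higher (1.02%) and 193 lower (0.912%). Both conditions called 138 genes, 36.1% of the 382 and 33.8% of the 408, all 138 with the same sign. Of the 382, 364 had the same sign with TGF-β (95.3%), beside 63.7% of all genes tested. The genes higher without TGF-β had a median log2 fold change of 0.30 without it and 0.21 with it, and the lower genes -0.38 and -0.24. The test of the change itself called 0 genes in edgeR (smallest adjusted p 0.0619, 1083 at an unadjusted p under 0.05), and DESeq2 called 34.

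With TGF-β, 21 of the 65 interferon effectors were lower and 1, Ifi27, higher (median -0.35), beside 0.912% of all genes lower and 1.02% higher in that comparison. Cxcl10 had a log2 fold change of -0.83 ± 0.05 (edgeR adjusted p = 7.62e-07), and Mx1 had -1.16 (0.0109). Sterol and fatty acid synthesis had 6 of 27 higher and 0 lower (median 0.13), with Scd1 at 0.33 (adjusted p = 0.00374) and Fdps at 0.27 (0.0131). The stress genes had 4 of 31 higher and 0 lower (median 0.075), with Chac1 at 0.45 (0.0138). p53 targets had 1 of 24 lower, Aen (median -0.091), and immediate-early factors 1 of 19 lower, Jun (-0.41, adjusted p = 0.00362), with a median of -0.17. The miR-29 targets had 2 of 52 higher, Col5a3 and Plpp6, and 2 lower, Sparc and Ppm1d (median 0.068). None of these genes passed edgeR's test of the change between conditions.

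**Figure D5:**
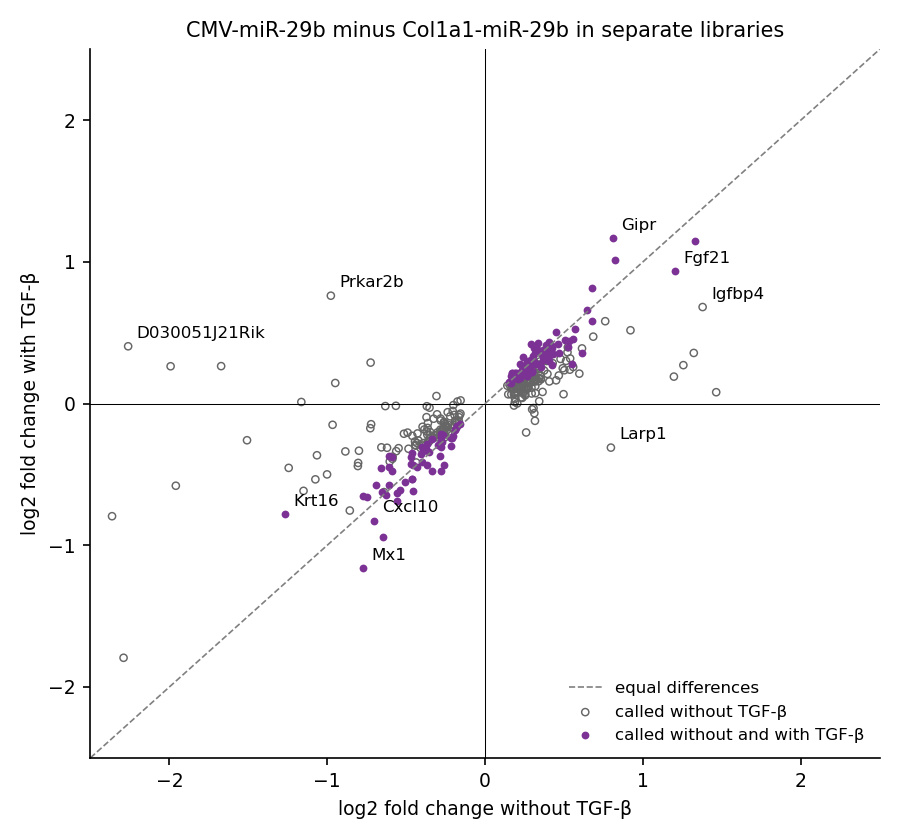
Log2 fold change, CMV-miR-29b minus Col1a1-miR-29b, without TGF-β (x) and with TGF-β (y), for the 381 genes called without it other than Mir29b-1; 3 genes lie outside the axes. Filled points are called in both conditions, and all of them lie in the lower left or upper right, while Larp1 and Prkar2b lie off the diagonal.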

How the data were processed

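Gene counts and FPKM were read from the deposited table, in which the authors gave whole-number counts for 18 libraries of 6 groups and FPKM, with 0.0001 in place of 0. Per the labels, reads were trimmed with cutadapt, checked with FastQC, mapped with HISAT2 and assembled with StringTie, with no versions given. The labels name mm9, but 52506 of 55450 genes have the coordinates of GENCODE M21 (GRCm38). Of the FPKM columns, 2 were not used, because their letter is in no sample title; the matching count columns show their group.

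Counts were fitted in edgeR 4.0.16 (quasi-likelihood, TMM, 1 mean per group, all 18 libraries) after filterByExpr (minimum count 10), which kept 21161 genes. Adjusted p is Benjamini-Hochberg over these, with a threshold of 0.05, and the code was tested on simulated data. CPM uses TMM-scaled totals. Each SE of a log2 fold change is its absolute value over the square root of edgeR's F statistic. It thus rests on the spread shared by all 18 libraries, not on 3 libraries a group alone. DESeq2 1.42.0 and limma 3.58.1 (log2 FPKM + 1 and + 0.1), other scalings and filters, each library left out, and the replicate block were alternatives; the tools ran in R 4.3.3 and Python 3.11.15. Totals ran from 65898017 to 80332633 counts, and intervals cover counting error only. Libraries of a group differed beyond sampling noise (chi-square per gene at least 40.4 over the 6 groups, or 10.1 with counts divided by 4).

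Named genes were Mir29 genes, Col1a1, Acta2 and Col3a1, the 12 largest rises and 12 largest falls with adjusted p under 0.05, mean CPM of at least 1 and no overlap, and from each of 24 lists the 3 largest changes past the threshold, or else the 2 most abundant members. Igtp, Irgm2, Ifit1, Xbp1, Cdkn1a, Ei24, Pcna and Jun were chosen after their values were seen, and other genes are named as members of a list's count. Some list members are not reported here. Members and lists were chosen with earlier results of these data known. Seed matches were counted in GENCODE M21 3′ UTRs and motifs in RefSeq promoters.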

Additional observations from a re-analysis of the deposited data

How the results depend on the processing

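The count of 382 stayed within 1.5 times in 7 of 22 alternatives. It was 1179 in DESeq2, 202 with at least 1 count in any library, 18 with the 6 libraries alone, 62 and 56 in limma with 1 and 0.1 added to FPKM and the third Col1a1-miR-29b libraries lacking, 2 in a test against a 2-fold change, and 25 with 2-fold as a second threshold. With the replicate letter as a block and the third Col1a1-miR-29b libraries left out it was 29, and 41 where offsets for length and GC were added; without those libraries and with no block, chosen after seeing the data, it was 79. No pairing by letter was seen: 4 of 16 lettered libraries correlate best with their own letter. Mean correlations were 0.002 within a letter and -0.00093 between letters. With 3 libraries a group, this check cannot exclude pairing. Leaving out 1 library gave 61 to 428 genes. Mir29b-1 kept its direction and passed in all 17 alternatives (log2 fold change 4.65 to 8.11, adjusted p 2.51e-09 to 0.0351).

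The change with TGF-β gave 34 genes in DESeq2, 2 with the block, 1 with robust dispersions, 2 without the third libraries and no block, and 0 to 3 with 1 library left out.

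Of 52 called genes named by the rule, besides Mir29b-1, 3 (Cxcl10, Fdps, Chac1) passed in all 18 alternatives, as did 2 (Igtp, Irgm2) of the 8 chosen after their values were seen; these 2 overlap each other on the same strand. No called named gene reversed. Without CMV-miR-29b library c, 46 of the 60 lost their call, 18 without d and 32 without e; without Col1a1-miR-29b library c it was 32, without d 42 and without the third library 38. The cause was not tested.

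Log2 fold changes of 8 uncalled genes crossed 0. Col1a1 was -0.026 by total counts, -0.060 with the block, -0.110 and -0.111 in limma, -0.042 with offsets, -0.099 with offsets and block, and -0.074 without the third libraries. Loxl2 was -0.043 and -0.044 in limma, -0.006 with offsets and block, and -0.009 without the third libraries. Itgb1 was 0.013 with offsets and 0.019 with the block added, Atp5b 0.014 and 0.008, Rn7sk 0.010 with the block and 0.115 with offsets and block, and Hsp90ab1 -0.003 in both limma fits. Leaving out 1 library gave -0.074 to 0.087 for Col1a1, -0.008 to 0.004 for Itgb1, -0.020 to 0.080 for Loxl2, -0.768 to 0.112 for Rn7sk, -0.006 to 0.231 for mt-Co1 and -0.014 to 0.524 for mt-Co2.

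Precision is limited by 3 libraries a group and, at low counts, by depth: a count of 0 allows up to 3 counts. Counts against the empty vector and within the TGF-β libraries were not recomputed without single libraries.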
